A study of Mus musculus with 7 samples.

Results

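The wide RNAP2 regions are the stretches of the genome where RNA polymerase II (RNAP2) ChIP-seq peaks of mouse gastrocnemius muscle, merged over both replicates, reached 1500 bp or more. They were found by merging peaks of the RNAP2 lists that overlapped by at least 1 bp and keeping regions with a peak in each list, which left 10752 regions, of which 382 (3.55%) were wide. All samples came from gastrocnemius, a mainly fast-twitch calf muscle, of male mice labelled Wild Type and C57BL/6J, aged 3 to 5 months by the study's methods, and the labels name no allele or treatment. The study's controls are Cre-negative littermates of mice bred for loss of Bmal1 in muscle, so whether these mice carried a floxed Bmal1 allele is not given in the sources used here. RNAP2 and BMAL1 were precipitated at Zeitgeber time (ZT) 4, which is 4 h after lights on, and REV-ERBα at ZT 8, each in 2 replicates, so the factor lists and the time of day differ together for REV-ERBα. A peak's −log10 p and its fold enrichment over input DNA are the values at its summit, and the strength of a region in a replicate is its highest −log10 p there. With 2 lists per factor, comparisons are given for each list, as replicate 1 and replicate 2 in that order, and none was tested. Peak lists from whole muscle sum all its cells, so fewer cells of a type and less polymerase per cell cannot be told apart, and the labels do not say how many mice gave each sample. The regions were chosen by their RNAP2 widths, so widths and RNAP2 values are descriptions.

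RNAP2 gathers at the transcription start site (TSS) of most active genes, where it pauses, and runs on through the gene when it elongates. A compact gene that is read by many polymerases at once can therefore carry signal from its start to beyond its 3' end. Skeletal muscle fibers devote much of their transcription to a small set of contractile, calcium-handling and glycolytic genes. BMAL1 is the activator of the circadian clock and binds E-boxes with the core CACGTG together with CLOCK. REV-ERBα, encoded by Nr1d1, is a nuclear receptor that represses transcription and binds the hexamer AGGTCA, and Nr1d1 is itself a BMAL1 target.

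The windows below reach 50 bp to each side of factor summits inside wide regions and show what sequence lay under the strongest or best-known sites. They were read from the mm10 (GRCm38) forward strand, and capitals mark a match on either strand to the canonical E-box (CACGTG), the myogenic E-box (CAGCTG) bound by MYOD and its relatives, or the nuclear receptor hexamer (AGGTCA). The BMAL1 windows are at Nr1d1 (chr11:98773927-98774027, in an intron), Dbp (chr7:45707619-45707719, in an exon), the Mir133a-2 locus (chr2:180400638-180400738, outside annotated genes), Nctc1 (chr7:142550116-142550216, in an intron) and Txnip (chr3:96562027-96562127, in an intron of the overlapping gene Gm15441). Of these 5 windows, the one at Dbp held a canonical E-box.
Nr1d1, BMAL1: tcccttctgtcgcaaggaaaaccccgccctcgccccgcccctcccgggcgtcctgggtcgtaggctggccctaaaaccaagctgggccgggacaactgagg
Dbp, BMAL1: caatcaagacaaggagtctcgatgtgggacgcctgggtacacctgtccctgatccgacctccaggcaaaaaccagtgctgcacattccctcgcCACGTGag
Mir133a-2 locus, BMAL1: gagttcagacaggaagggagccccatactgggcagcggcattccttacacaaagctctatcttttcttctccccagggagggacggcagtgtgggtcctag
Nctc1, BMAL1: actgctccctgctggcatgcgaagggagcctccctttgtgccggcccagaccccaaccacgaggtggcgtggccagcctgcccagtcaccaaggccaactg
Txnip, BMAL1: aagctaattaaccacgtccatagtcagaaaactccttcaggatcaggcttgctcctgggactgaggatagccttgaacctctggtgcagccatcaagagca

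The REV-ERBα windows are at Ube2b (chr11:52000507-52000607, in an intron, 73 bp from a TSS), the Mir133a-2 locus (chr2:180400116-180400216, outside annotated genes), Tcap (chr11:98385116-98385216, past the 3' end), Ckm (chr7:19423381-19423481, past the 3' end), Sphk2 (chr7:45711390-45711490, in an exon, next to Dbp) and Tnni2 (chr7:142443409-142443509, in an exon). Ube2b and the Mir133a-2 locus are shown as the strongest REV-ERBα sites of the wide regions, and Sphk2 and Tnni2 as windows with the receptor hexamer. Tcap held a myogenic E-box, while the windows at Ube2b, the Mir133a-2 locus and Ckm held none of these motifs.
Ube2b, REV-ERBα: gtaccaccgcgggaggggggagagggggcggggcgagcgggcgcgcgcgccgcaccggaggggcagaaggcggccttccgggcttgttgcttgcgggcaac
Mir133a-2 locus, REV-ERBα: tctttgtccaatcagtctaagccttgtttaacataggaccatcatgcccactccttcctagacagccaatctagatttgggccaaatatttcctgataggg
Tcap, REV-ERBα: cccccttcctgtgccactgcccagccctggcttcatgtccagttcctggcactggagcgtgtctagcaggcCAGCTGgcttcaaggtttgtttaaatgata
Ckm, REV-ERBα: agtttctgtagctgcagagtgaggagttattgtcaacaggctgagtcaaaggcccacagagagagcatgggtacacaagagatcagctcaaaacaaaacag
Sphk2, REV-ERBα: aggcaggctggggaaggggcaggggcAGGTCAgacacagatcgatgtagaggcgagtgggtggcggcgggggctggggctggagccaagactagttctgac
Tnni2, REV-ERBα: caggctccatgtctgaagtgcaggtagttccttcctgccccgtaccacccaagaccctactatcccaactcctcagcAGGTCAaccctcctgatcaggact

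The wide regions made up 12.9% of the bases covered by RNAP2 regions, at 987 of 7637 kb. Their median width was 1920 bp and the widest, at Myh4, spanned 22628 bp, against a median of 589 bp for the 10370 narrower regions. Most were close to the limit, with 213 between 1500 and 2000 bp, 97 between 2000 and 3000 bp, 53 between 3000 and 5000 bp and 19 of 5000 bp or more (upper bounds not included). They were also the stronger regions. Their median −log10 p was 15.5 in replicate 1 and 9.04 in replicate 2, against 4.77 and 3.26 in the narrower regions, and their median fold enrichment was 7.72 and 5.27, against 3.65 and 2.80. Replicate 1 gave the higher −log10 p in 333 of the 382 wide regions and in 8281 of the 10370 narrower ones. This order of the replicates is thus not particular to wide regions. Width and strength were only loosely tied inside the group, with a Spearman's rho of 0.34 between width and the lower −log10 p over the 382 regions, which share the same libraries.

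**Figure D1:**
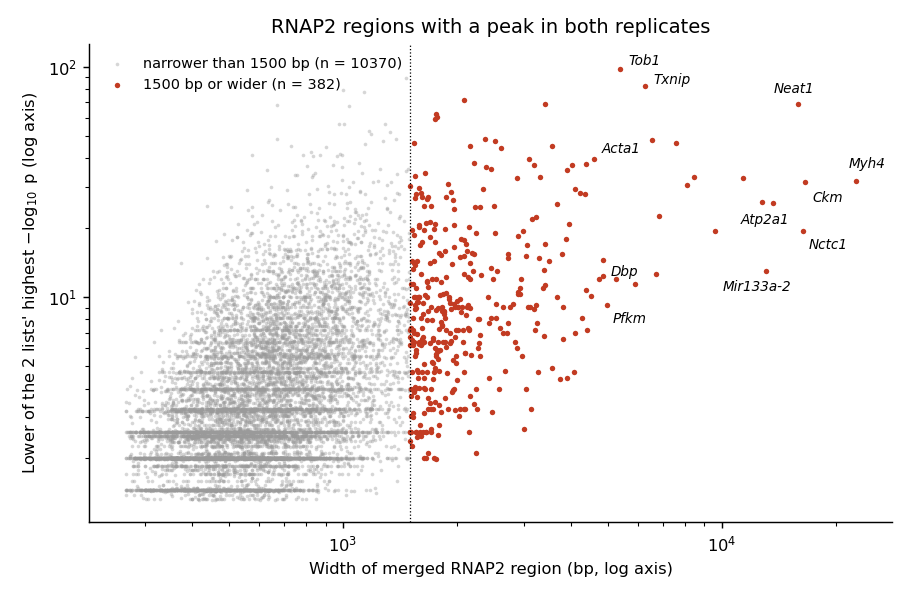
Each point is an RNAP2 region with a peak in both replicates, placed by its merged width in bp (log axis) and by the lower of its replicates' highest −log10 p (log axis), with the 382 wide regions in red and the 10370 narrower ones in grey. The wide regions reach from weak regions near the limit at 1500 bp to Myh4 at 22628 bp, and Tob1 and Txnip stand highest among them.

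The merged width depended on both lists. A single peak of 1500 bp or more lay in 155 wide regions in replicate 1 and in 239 in replicate 2, and the other wide regions came from neighbouring or staggered peaks. The bases under peaks of both replicates made up 66.8% of the wide regions' summed width, and 128 of the 382 still reached 1500 bp by these bases alone. At the limit, Dennd5a (1500 bp), Usp30 (1501 bp) and Slc26a6 (1501 bp) lay just inside and Mpc1 (1499 bp), Clcn4 (1497 bp) and Pnpla2 (1497 bp) just outside. The 3 outside were the stronger ones, with −log10 p values of 17.0 to 31.4 (replicate 1) and 7.34 to 17.8 (replicate 2), against 4.71 to 7.49 and 2.60 to 7.22 for the 3 inside.

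The widest regions lay over genes of fast-twitch fibers. Myh4, which encodes the myosin heavy chain of the fastest (type IIB) fibers, was covered by the 22628 bp region at chr11:67235276-67257903 and by a second wide region of 2969 bp. The first had −log10 p values of 71.3 (replicate 1) and 31.9 (replicate 2), and together they covered 92.1% of the gene. Ckm, the muscle creatine kinase that buffers ATP, had the next widest region, 16611 bp at chr7:19409070-19425680, with a −log10 p of 84.5 and 31.6. Atp2a1, the calcium pump of the sarcoplasmic reticulum in fast fibers, had 13670 bp with 68.9 and 25.7. Both replicates placed these genes far above the medians of the wide regions.

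Further contractile genes were among the 20 widest. Among the thin filament genes, Tnnt3 (fast troponin T) had a region of 11419 bp, Tpm1 (α-tropomyosin) 8453 bp, Tnnc2 (fast troponin C) 8105 bp and Tnni2 (fast troponin I) 6854 bp, with a −log10 p between 51.0 and 62.5 in replicate 1 and between 22.6 and 33.2 in replicate 2. Myl1, a fast myosin light chain, had 6691 bp with a weaker −log10 p of 25.6 and 12.6 and carried 3 more wide regions within 10 kb. Pvalb, the calcium buffer parvalbumin, had 7592 bp with 74.8 and 46.8. Nmrk2, a muscle kinase of the NAD salvage pathway, had 12750 bp with 32.0 and 25.9, and Eno3, the muscle enolase, was covered by neighbouring regions of 5918 and 5265 bp. The region of 4996 bp at Pfkm, muscle phosphofructokinase, lay inside the gene and held no TSS.

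Not all of the 20 widest regions were at muscle-specific genes. Txnip, which encodes an inhibitor of glucose uptake, had 6258 bp with −log10 p values of 129 (replicate 1) and 82.8 (replicate 2). Tob1, an antiproliferative gene, had 5378 bp with 104 and 97.9. These values exceeded those of Myh4 in both lists, although the Myh4 region was over 3 times as wide. Pfn1, which encodes the actin-binding protein profilin, shared the 5918 bp region with Eno3.

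**Figure D2:**
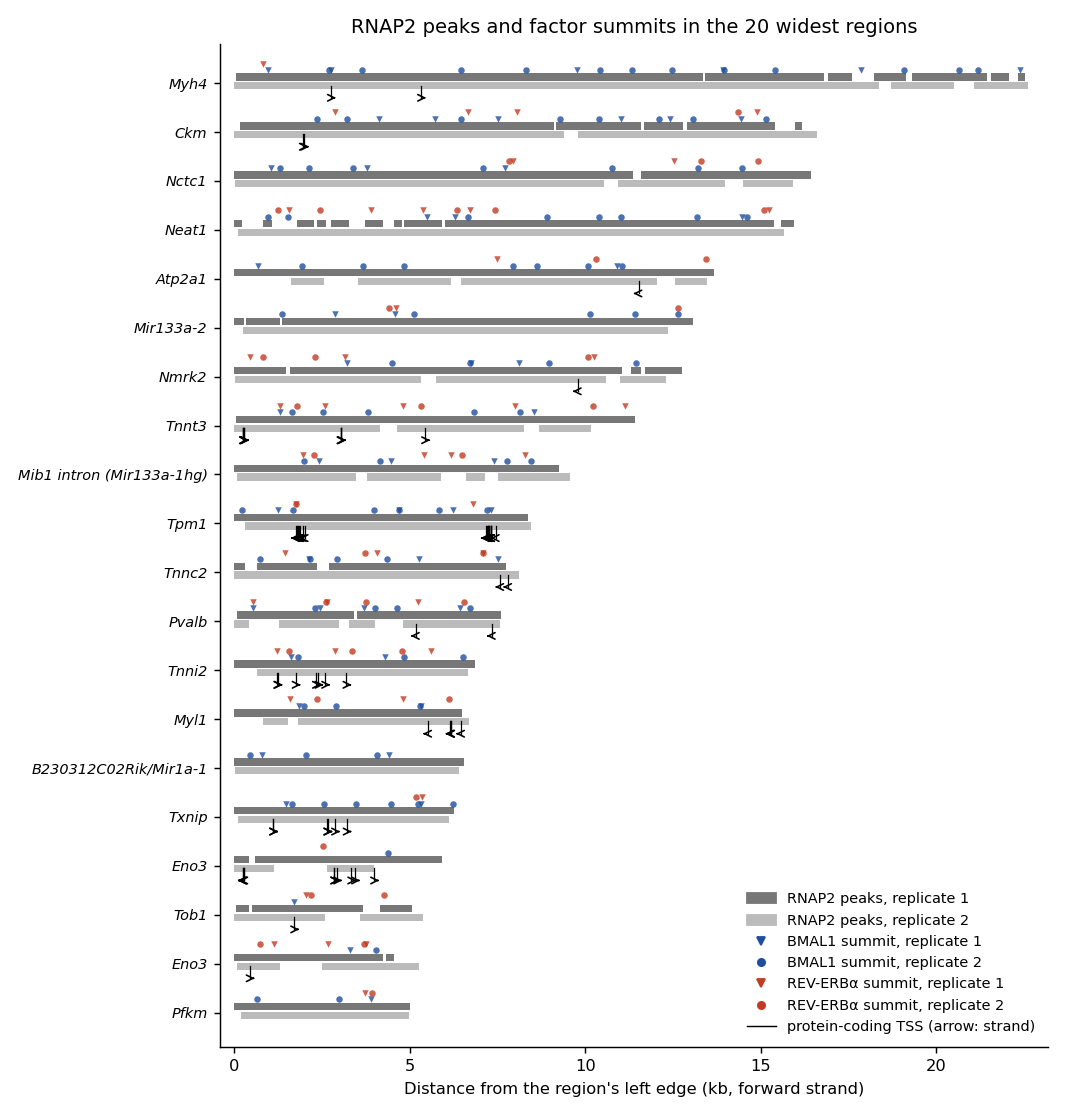
The 20 widest regions are drawn to scale from their left edge (kb, forward strand), with the RNAP2 peaks of replicate 1 (dark grey) and replicate 2 (light grey), the summits of BMAL1 (blue) and REV-ERBα (red) peaks in each replicate, and arrows at annotated TSSs of protein-coding genes. Peaks of both RNAP2 replicates run over most of each region, and all 20 hold a BMAL1 summit.

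Several of the widest regions had no protein-coding TSS and lay over noncoding RNA genes, some muscle-specific and some broadly expressed. Of the listed long noncoding RNAs, 2 of the 6 with a TSS in an RNAP2 region, Neat1 and Malat1, had it in a wide one. The region of 16436 bp at chr7:142543073-142559508 covered Nctc1, a long noncoding RNA near H19 and Igf2, with a −log10 p of 51.8 and 19.4. Neat1, the architectural RNA of paraspeckles, was covered by 15956 bp with 119 and 68.9, and Malat1, a nuclear speckle RNA, by 4362 bp with 83.5 and 27.9. The precursors of the muscle microRNAs miR-1 and miR-133a, which help to set the muscle gene program, lay in wide regions at both of their loci. On chromosome 2 Mir1a-1 (180389048-180389124) lay in a region of 6548 bp with a −log10 p of 124 and 48.1, and Mir133a-2 in one of 13086 bp with 44.8 and 13.01, with another wide region of 2286 bp between them. On chromosome 18 Mir1a-2 and Mir133a-1 lay together in 9582 bp inside an intron of Mib1, with 34.3 and 19.4. Of the 2202 annotated microRNA genes, 14 lay in wide regions (1.42 per 100 kb) and 64 in narrower ones (0.962 per 100 kb), with overlapping entries of 1 hairpin counted separately.

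A TSS of a protein-coding gene lay in 272 of the 382 wide regions (71.2%), in 5469 of the narrower ones (52.7%) and in 53.4% of all RNAP2 regions. A further 55 wide regions (14.4%) lay in a protein-coding gene body without a TSS, 25 (6.54%) overlapped only other annotated genes and 30 (7.85%) no annotated gene, whereas 21.1% of the narrower regions overlapped no annotated gene. Of those 30 wide regions, 18 lay within 10 kb of a protein-coding gene, 9 upstream and 9 downstream of it. Of the 2193 narrower regions without an annotated gene, 532 did, 310 upstream and 222 downstream. Introns held 45.3% of the bases of wide regions and 33.3% of those of narrower ones, and exons 30.2% and 32.1%. The GC content was alike, with a median of 56.0% in wide and 57.0% in narrower regions.

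Wide regions reached into the gene more than ahead of it. In the 238 with TSSs of exactly 1 protein-coding gene, the median reach was 631 bp upstream and 1311 bp downstream of the outermost TSS inside, and 188 (79.0%) reached further downstream. In the 4849 narrower regions of the same kind the medians were 279 and 343 bp, and 62.7% reached further downstream. The reach was 19874 bp at Myh4, 14655 bp at Ckm, 11520 bp at Atp2a1 and 11169 bp at Tnnt3. Bhlhe40, which encodes a clock repressor, was the other way round, with 2539 bp upstream and 391 bp downstream, and Casq1, the calcium store protein calsequestrin of fast fibers, was near even with 1085 and 1405 bp.

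The strongest RNAP2 summit mostly stayed near a start even so. In the same 238 regions it lay at a median of 90 bp from the nearest TSS in replicate 1 and 75.5 bp in replicate 2, and within 1 kb of one in 96.2% in both. Of the protein-coding genes, 11 lay whole inside 1 wide region, and 8 of them were 1 kb or longer. In 7 of these 8, Acta1, Tnnc2, Tnni2, Tcap, Pgam2, Gadd45g and Txnip, the strongest summit lay in the first 20% of the gene in both replicates. At Nmrk2 it lay past the 3' end in both. Genes with both a TSS and the 3' end in wide regions made up 8.94% of the genes with a TSS in one, and the same share for narrower regions was 0.745%. A single region under 1500 bp can hold both ends of a short gene only, so this gap follows in part from the width limit.

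Some wide regions sat next to each other. Of the 382, 95 fell into 41 groups whose members were within 10 kb of a neighbour. The same share of narrower regions was not counted, so this is not shown to be particular to wide ones. Several groups, as at Myl1 and Myh4, lay at a single gene. The groups with 4 members were at Tnnt3, at Myl1 and at Mylk2, which encodes the myosin light chain kinase of skeletal muscle. Acta1, the skeletal α-actin, Des, which encodes desmin, Nmrk2 and Pvalb each belonged to a group of 3.

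A TSS of 301 protein-coding genes lay in a wide region, which was 4.85% of the 6205 genes with a TSS in any RNAP2 region. The 6 lists of contractile, calcium and energy genes of muscle were above that share. Of the muscle transcription factors 0 of 8 were in a wide region, too few genes to tell from 4.85%. Of the thin filament genes 7 of 12 with a TSS in an RNAP2 region had it in a wide one (58.3%), of the Z-disc and titin genes 9 of 16 (56.3%) and of the thick filament genes 6 of 11 (54.5%). The thin filament set held Acta1, Tpm1, Tpm2, Tnnc2, Tnni2, Tnnt3 and Tmod4, a capping protein of the filament's pointed end. The thick filament set held Myh4, Myl1, Mylpf, Mybpc2, Mylk2 and Mylk4, and the Z-disc set Ttn, Actn3, Myot, Tcap, Ldb3, Pdlim5, Flnc, Des and Ankrd23. Tcap, which caps titin at the Z-disc, had the highest replicate 1 value of the wide regions, with a −log10 p of 141 against 33.2 in replicate 2, and Acta1 followed with 131 and 39.9.

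The metabolic and calcium lists showed the same to a lesser degree. Of the glycolysis and glycogen genes 9 of 19 (47.4%) had a TSS in a wide region: Pygm, Hk2, Aldoa, Gapdh, Pgam2, Eno3, Pkm, Ldha and Ppp1r3c, which targets phosphatase to glycogen. Their widths ran from 1753 bp at Ppp1r3c to 5918 bp at Eno3. Of the calcium-handling genes it was 6 of 14 (42.9%), namely Ryr1, Atp2a1, Casq1, Pvalb, Jph1 and Hrc. Of the creatine kinase and respiration genes it was 5 of 18 (27.8%), namely Ckm, Ak1, Ampd1, Mb and Slc25a4. Mb, which encodes the oxygen store myoglobin, had the weakest of the regions named for these 6 lists, with a −log10 p of 4.88 and 1.98.

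Clock genes were frequent as well, at 6 of 13 (46.2%). Dbp and Tef, which encode PAR bZIP activators driven by the clock, had regions of 4866 and 1789 bp. The clock repressors Per1, Nr1d1, Bhlhe40 and Bhlhe41 had 2145, 1813, 2931 and 1837 bp. Of the immediate early genes 3 of 14 (21.4%) were in wide regions, Jun and Jund, which encode AP-1 subunits, and Dusp1, a MAP kinase phosphatase with 4018 bp. Of the replication-dependent histone genes 4 of 20 (20%) were, with 1542 to 1679 bp, and Hist2h3b and Hist2h2bb shared a region.

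Over all 10752 regions the Spearman's rho between width and the lower −log10 p was 0.46, but the ribosomal protein genes had strong and narrow regions. Of the ribosomal protein genes 78 of 83 had a TSS in an RNAP2 region and 0 of these 78 in a wide one. Their regions had median −log10 p values of 14.4 (replicate 1) and 7.51 (replicate 2), above the 8.49 and 5.16 of all regions with a TSS, yet a median width of 649 bp against 674 bp, and the widest was 1250 bp. The regions of the 8 muscle transcription factor genes were not narrow in this sense. Their median width was 1073.5 bp, above the 674 bp of all regions with a TSS, and the widest was 1470 bp. Of the 41 marker genes of endothelial cells, fibroblasts, macrophages, smooth muscle, adipocytes, erythroid cells, Schwann cells and satellite cells, 4 fibroblast genes and 1 Schwann cell gene had a TSS in any RNAP2 region and 0 in a wide one. These are too few to set against the 4.85% of all genes.

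**Figure D3:**
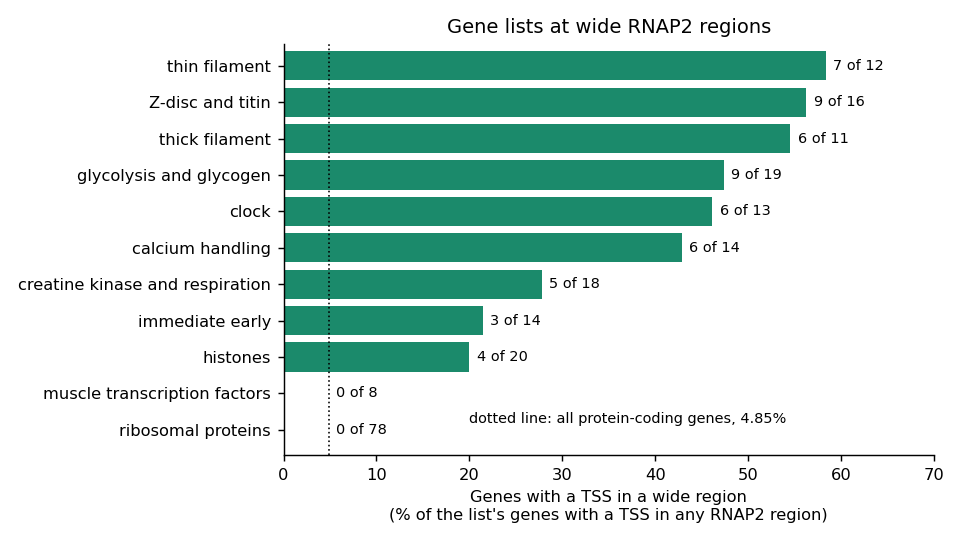
Bars give, for each gene list, the share of its genes with a TSS in an RNAP2 region whose TSS lay in a wide region (%), with the counts beside each bar and the share of all protein-coding genes, 4.85%, as a dotted line. Contractile lists reach 54.5 to 58.3%, whereas the 78 ribosomal protein genes are at 0. The muscle transcription factor genes are also at 0, but with 8 genes this cannot be told from 4.85%.

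BMAL1 and REV-ERBα summits were denser in the wide regions than in the narrower ones per kb of width. For BMAL1, replicate 1 had 139 summits in wide regions (0.141 per kb) and 208 in narrower ones (0.0313 per kb), and replicate 2 had 201 (0.204 per kb) and 403 (0.0606 per kb), which are ratios of 4.50 and 3.36. For REV-ERBα, replicate 1 had 241 (0.244 per kb) and 443 (0.0666 per kb), and replicate 2 had 266 (0.270 per kb) and 520 (0.0782 per kb), which are ratios of 3.67 and 3.45. The genome as a whole had 0.0127 and 0.0652 BMAL1 summits per kb and 0.0106 and 0.0110 REV-ERBα summits per kb in replicates 1 and 2. The second BMAL1 list, which held 177669 peaks against 34737 in the first, was thus no denser in narrower RNAP2 regions than in the genome, but 3.12 times as dense in wide ones. The BMAL1 lists diverged when RNAP2 regions came from a single replicate, with ratios of 10.9 and 3.37 for RNAP2 replicate 1 and of 7.71 and 2.58 for RNAP2 replicate 2. The REV-ERBα ratios were then 8.02 and 8.06 for RNAP2 replicate 1 and 10.9 and 11.1 for RNAP2 replicate 2. With factor peaks of −log10 p 3 or more the BMAL1 ratios were 6.96 and 8.52 and those of REV-ERBα 4.46 and 4.09.

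The factors differed in how their density changed with width. BMAL1 replicate 2 first fell with width, from 0.0798 per kb under 500 bp to 0.0563 between 500 and 1000 bp, where replicate 1 had 0.0215 and 0.0273. From there BMAL1 summits became denser in wider regions, from 0.0570 and 0.0519 per kb between 1000 and 1500 bp to 0.0691 and 0.0747 between 1500 and 2000 bp, 0.136 and 0.170 between 2000 and 3000 bp and 0.209 and 0.341 at 3000 bp or more. REV-ERBα summits were already at 0.128 and 0.157 per kb between 1000 and 1500 bp, rose to 0.218 and 0.257 between 1500 and 2000 bp and to 0.280 and 0.315 between 2000 and 3000 bp, and stood at 0.247 and 0.255 in the widest. The 20 widest regions held 20.7% of the wide regions' width, but 37.4 and 46.3% of their BMAL1 summits and 18.7 and 14.7% of their REV-ERBα summits. Without these 20 the BMAL1 ratios were 3.55 and 2.28 and the REV-ERBα ratios 3.76 and 3.71. Regions between 1500 and 3000 bp set against those between 1000 and 1500 bp gave ratios of 1.67 and 2.16 for BMAL1 and of 1.90 and 1.78 for REV-ERBα.

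**Figure D4:**
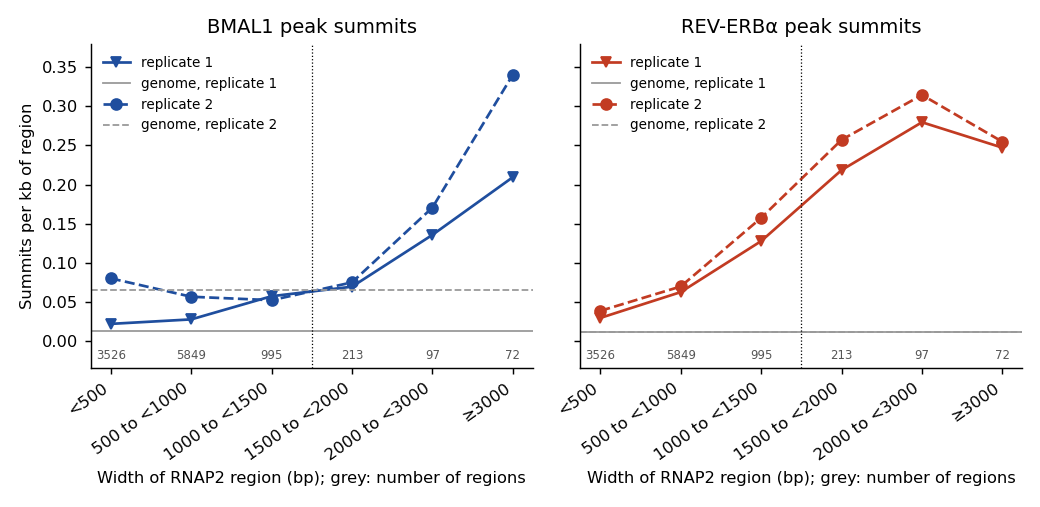
Peak summits per kb of RNAP2 region are plotted by region width (bp) for BMAL1 (left) and REV-ERBα (right) in replicate 1 (triangles, solid line) and replicate 2 (circles, dashed line), with the genome-wide density in grey and the limit of 1500 bp as a dotted line. BMAL1 reaches 0.209 and 0.341 summits per kb in the 72 widest regions, while REV-ERBα is highest between 2000 and 3000 bp.

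RNAP2 strength moved with width, so densities were also read at like strength. Among regions with a −log10 p of 10 or more in both RNAP2 lists, the 157 wide ones held 0.176 and 0.255 BMAL1 summits per kb and the 789 narrower ones 0.0589 and 0.0488. For REV-ERBα these were 0.248 and 0.255 against 0.126 and 0.141. Among regions whose lower −log10 p was under 5, the 88 wide ones held 0.0881 and 0.165 BMAL1 summits per kb against 0.0256 and 0.0703 in narrower ones, and 0.229 REV-ERBα summits per kb in each replicate against 0.0502 and 0.0612. In each of these strata and lists the wide regions were the denser ones. Factor peaks were themselves broader there, with a median width of 773 and 451 bp for BMAL1 in wide regions against 553 and 333 bp in narrower ones, and 790 and 748 bp against 551 and 511 bp for REV-ERBα. The part of RNAP2 strength and of peak width in these densities was not tested.

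A smaller share of the factor summits in wide regions lay within 1 kb of a TSS. Part of this gap follows from the width rule, because a summit in a region under 1500 bp with a TSS lies less than 1500 bp from it. For REV-ERBα 52.3 and 51.1% of summits in wide regions were within 1 kb of a protein-coding TSS, against 73.8 and 72.7% in narrower ones. For BMAL1 it was 31.7 and 27.9%, against 63.5 and 42.2%. The order did not hold at larger distances for BMAL1 replicate 2, where 33.3% of summits in wide and 45.9% in narrower regions were over 5 kb away, and the median distances were 2701 and 3287 bp. Wide regions without a protein-coding TSS were no less dense in summits than those with one, at 0.161 and 0.240 against 0.132 and 0.188 per kb for BMAL1 and 0.247 and 0.302 against 0.243 and 0.255 for REV-ERBα.

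A BMAL1 region present in both replicates lay in 50 wide regions (13.1%) and 56 narrower ones (0.540%), while 0.986% of all RNAP2 regions had one. Per 100 kb of width these were 7.20 BMAL1 regions in wide and 0.842 in narrower RNAP2 regions. For REV-ERBα it was 159 wide regions (41.6%) and 268 narrower ones (2.58%), against 3.97% of all, or 18.4 and 4.03 REV-ERBα regions per 100 kb. With 12.9% of the bases of RNAP2 regions, the wide ones held 50 of the 106 with BMAL1 and 159 of the 427 with REV-ERBα. Both factors were in 46 wide regions, which was 92.0% of the wide regions with BMAL1 and 28.9% of those with REV-ERBα. In narrower regions both were in 18, or 32.1 and 6.72%. No peak of any of the 4 factor lists touched 96 of the 382 wide regions and 8696 of the 10370 narrower ones. Peaks of all 4 lists touched 54 wide regions (14.1%, against 0.174% of the narrower ones).

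Of the 50 wide regions with BMAL1, 16 held a TSS of a muscle list gene, 5 one of a clock gene, 8 one of another protein-coding gene, and 21 held none. Of the 45 wide regions with a TSS of a contractile, calcium, glycolysis or creatine kinase list gene, 16 (35.6%) had BMAL1 and 26 (57.8%) REV-ERBα in both replicates. Of the 51 narrower regions with a TSS of such a gene, 0 had BMAL1 and 2 (3.92%) REV-ERBα. These shares are per region and not per kb, and the wide ones had a median width of 3053 bp against 805 bp. The wide ones also had more RNAP2, with a median −log10 p of 35.4 and 15.8 against 9.85 and 6.78. At clock genes BMAL1 was in 5 of 6 wide and 5 of 9 narrower regions and REV-ERBα in 5 of 6 and 4 of 9. Of the 221 wide regions with a TSS of another protein-coding gene, 8 (3.62%) had BMAL1 and 72 (32.6%) REV-ERBα.

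The strongest BMAL1 sites of the wide regions were at clock and at muscle genes. Each site is given by the highest −log10 p of a peak that touched the region, and sites are ordered by the lower replicate of the BMAL1 region merged over both lists. Nr1d1 came first, with BMAL1 −log10 p values of 16.0 (replicate 1) and 14.6 (replicate 2), followed by Tef with 30.7 and 12.0. The Mir133a-2 locus (11.9 and 18.8), Tcap (11.0 and 10.6) and Dbp (15.1 and 9.72) came next, and Nctc1 had 8.95 and 18.4. Txnip (8.25 and 8.91), Myh4 (8.68 and 6.43, and 8.09 and 7.22 in its second region) and a region 753 bp from Pvalb (8.19 and 7.22) filled the first 10, where a merged BMAL1 region with 8.09 and 7.22 ran over both Myh4 regions, and Neat1 (7.03 and 8.12) was next. Pnmt, which encodes an adrenaline-synthesizing enzyme, has a TSS in the same region as Tcap. At clock genes outside the first 10 the replicates were less even, with 11.0 and 3.36 at Bhlhe40, 6.71 and 1.83 at Bhlhe41, and 4.14 in replicate 1 with no peak in replicate 2 at Per1.

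The wide regions of the leading muscle genes held several BMAL1 summits in each list. Myh4 had 6 summits in replicate 1 and 12 in replicate 2, and Ckm 6 and 8. Tpm1 had 4 and 6, and Pvalb 4 and 4. The highest BMAL1 −log10 p among these peaks was 3.82 and 4.06 at Tpm1 and 3.88 and 2.35 at Pvalb, below Nr1d1, Tef and Dbp in both lists. At Ckm it was 5.07 and 13.4, so replicate 2 was above Tef and Dbp there and replicate 1 below them. Over all wide regions that a BMAL1 peak touched, the median of the highest −log10 p was 3.19 in replicate 1 and 2.75 in replicate 2, against 2.48 and 2.15 in narrower regions.

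The strongest REV-ERBα sites lay elsewhere. Ube2b, a ubiquitin-conjugating enzyme gene, had REV-ERBα −log10 p values of 70.3 (replicate 1) and 48.4 (replicate 2), and Prdm10, a zinc finger gene, had 61.2 and 32.4. Map7d1, a microtubule-associated protein gene, had 48.7 and 38.4, and Kmt5b, a histone H4 methyltransferase gene, had 31.1 and 34.3. Bcl6, which encodes a transcriptional repressor, followed with 30.6 and 33.9 and a region 88 bp from BC005537 with 28.5 and 25.9. None of these 6 regions overlapped a BMAL1 peak in either list, and their widths were 1549 to 3956 bp.

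The other 4 of the 10 strongest were at noncoding loci and had BMAL1 too. A single REV-ERBα peak ran over Mir1a-1, Mir133a-2 and the wide region between them, with a −log10 p of 48.6 and 45.9, and its summit in both replicates lay in the Mir133a-2 region. It was the widest REV-ERBα peak of each list, at 25719 bp in replicate 1 and 27270 bp in replicate 2. Nctc1 had a REV-ERBα −log10 p of 24.7 and 37.2. Among the contractile and energy genes Tcap had 21.2 and 22.7, Ckm 20.5 and 27.5, Acta1 19.6 and 21.2, Atp2a1 15.6 and 14.6 and Myh4 13.7 and 14.9, and each value was above that of BMAL1 in the same region and replicate. Other genes of these lists went the other way in 1 replicate. In replicate 1 REV-ERBα had 5.20 and BMAL1 6.60 at Tnnc2, and 2.41 and 4.56 at Mybpc2. In replicate 2 they had 1.86 and 2.40 at Tpm2. At Nr1d1 BMAL1 was higher in both replicates, with 6.24 and 5.39 for REV-ERBα. The factors' lists differ in antibody, size and time of day, so this order is not one of binding.

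Sequence under the summits was searched for motifs. At BMAL1 regions of both replicates, the window reaching 50 bp to each side of the stronger list's summit held a canonical E-box (CACGTG) in 3 of 65 windows in wide regions (4.62%), at Tef, Dbp and Lncpint, and in 12 of 34 in narrower ones (35.3%). Outside RNAP2 regions it was 25 of 2643 windows (0.946%), and 1.79% of 27025 RefSeq promoter windows of the same length held one. Read over each list's own summits, the shares were 7.19% of 139 in wide and 12.5% of 208 in narrower regions for replicate 1, and 3.98% of 201 and 5.71% of 403 for replicate 2, a much smaller gap. The BMAL1 regions were wider there, with a median of 1439 bp in wide and 645 bp in narrower RNAP2 regions, and their replicate summits lay a median of 346 bp apart against 70.5 bp. Over their whole length they held 0.248 canonical E-boxes per kb in wide and 1.36 per kb in narrower RNAP2 regions.

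At REV-ERBα regions of both replicates the hexamer AGGTCA was in 15 of 160 windows in wide regions (9.38%), in 8 of 214 in narrower ones (3.74%) and in 63 of 889 outside RNAP2 regions (7.09%), against 5.72% of promoter windows. Over each list's own summits it was 6.64 and 7.52% in wide and 4.97 and 5.77% in narrower regions. The myogenic E-box CAGCTG was in 16 (10%) and 18 (8.41%) of the windows in wide and narrower regions. The MEF2 core, taken as CTA and TAG with 4 bases between them, was in 0 of the 160 and 6 of the 214 (2.80%), but over each list's own summits in 1 of 241 and 5 of 266 in wide regions. The MEF2 core was in 3 of the 65 BMAL1 windows, 1 of them at Mybpc2, a fast myosin-binding protein gene. No motif searched contains another, both strands were searched, and a window without a match says only that these letters are not in it.

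**Figure D5:**
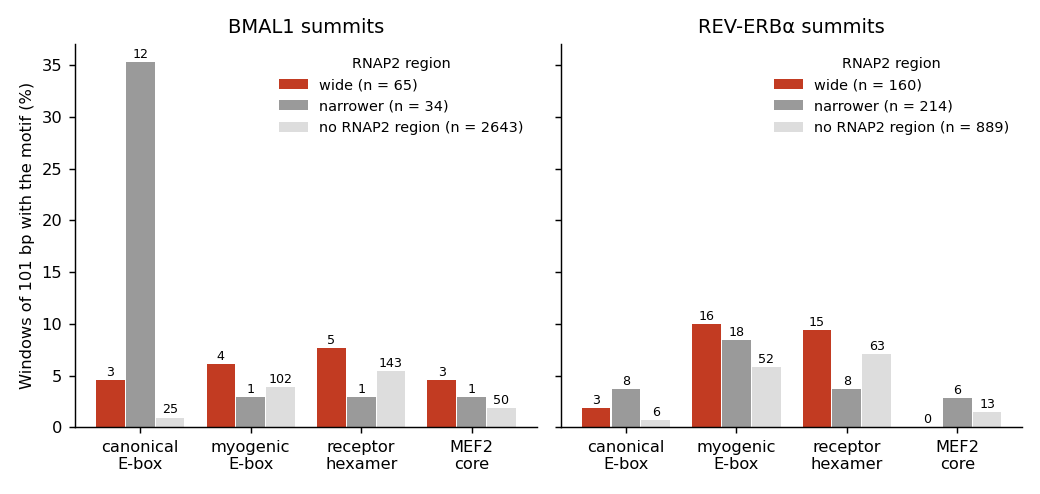
Bars give the share of windows (%) reaching 50 bp to each side of BMAL1 (left) and REV-ERBα (right) summits of both-replicate regions that held each motif, in wide, narrower and no RNAP2 region, with the number of windows above each bar. The canonical E-box is in 3 of 65 BMAL1 windows of wide and in 12 of 34 of narrower regions.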

How the data were processed

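ChIP-seq peak lists of RNAP2 and BMAL1 (ZT 4) and REV-ERBα (ZT 8) from gastrocnemius, 2 replicates each, were used as deposited. The authors mapped reads to mm10 with BWA (7.12), removed duplicate and multiply mapped reads, down-sampled replicates and called peaks in each replicate against input DNA with MACS2 (2.1.1) at a p cutoff of 0.05. Each deposited peak carries a fold enrichment (a ratio over input), −log10 p and −log10 q values, and a display score that was not used. Read depth is not in these lists, so no interval could be given, and the number of peaks per list (28881 to 177669) differed most for BMAL1.

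Peaks overlapping by 1 bp or more were merged with Python 3.11.15 and pandas 2.3.3, keeping regions with a peak in both replicates of a factor. On scaffolds, 9 peaks were left out. Factor summits were counted per kb of region width, genes and TSSs were taken from GENCODE M21, promoters from RefSeq, and sequence from GRCm38.p6 with pysam 0.24.0. Interval counts were checked on simulated data. No test was made. The regions and gene lists were chosen with earlier results of these data known. The genes named are those at the 20 widest regions, at the 10 strongest BMAL1 and REV-ERBα sites, list members and the 3 regions on each side of the limit. Gadd45g, Lncpint, Sphk2, the microRNA genes and the MEF2 core example were named after their values were seen. The alternatives were other widths, peak cutoffs, region sets and left-out replicates. 1 gene is not reported here.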

Additional observations from a re-analysis of the deposited data

How the results depend on the processing

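Under other settings the 32 recomputed ratios stayed above 1. Of all 73 recomputed values, 41 of them counts, 27 moved by less than 1 SD of the replicate lists (ratios) or by at most 1.5 times (counts). The mean ratio of summits per kb, wide over narrower, was 3.93 ± 0.808 (SD, n = 2 lists) for BMAL1 and 3.56 ± 0.155 for REV-ERBα. With limits of 1000, 2000 and 3000 bp there were 1377, 169 and 72 wide regions with 1180, 125 and 51 genes, the BMAL1 ratio was 2.82, 5.01 and 5.50, the REV-ERBα ratio 3.39, 3.32 and 2.87, and REV-ERBα regions of both replicates were in 255, 102 and 55 (BMAL1 in 32 at 3000 bp). Width counted only where both RNAP2 lists had a peak left 128 regions, 99 genes, ratios of 5.53 and 3.23 and 83 regions with REV-ERBα. RNAP2 peaks of −log10 p 3 or more gave a REV-ERBα ratio of 2.57, and RNAP2 regions of 5 or more gave 2.43. Factor peaks of 3 or more gave ratios of 7.74 and 4.27 and 25 regions with BMAL1. Regions with a TSS alone gave a REV-ERBα ratio of 2.93, with BMAL1 in 29 and REV-ERBα in 103. Peaks in place of summits gave 2.80 and 3.01, and narrower regions of 500 bp or more gave 3.10 for REV-ERBα. Settings chosen after seeing the data were the set without the 20 widest (2.92 and 3.74, BMAL1 in 32) and 1500 to under 3000 bp against 1000 to under 1500 bp (1.91 and 1.84).

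Leaving out 1 replicate at a time gave 170 to 296 regions, 110 to 201 genes, a mean BMAL1 ratio of 3.36 to 7.15, a REV-ERBα ratio of 3.45 to 10.98, BMAL1 in 45 to 108 and REV-ERBα in 102 to 230. Without RNAP2 replicate 2 there were 170 regions with a REV-ERBα ratio of 8.04, and without RNAP2 replicate 1 there were 296 with a ratio of 10.98, where narrower regions are those of a single list. Without BMAL1 replicate 1 or 2, peaks of the other list alone touched 108 and 103 wide regions. The cause of the other shifts was not tested. No paired analysis was possible because no value comes from a test.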

Other observations

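No wide region lay on the X chromosome, where 102 narrower regions were found. Of all RNAP2 regions 3.55% were wide, so at that share the X would hold only a few. Wide regions were less rich in CpG than narrower ones, with a median ratio of observed to expected CpG of 0.562 against 0.623. Overlap with an annotated lincRNA TSS was found in 24 of the 382 wide and 148 of the 10370 narrower regions, a larger share of the wide ones.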
